A study of Mus musculus with 9 samples.

Results

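Of the 10 Hedgehog pathway genes described here, Hhip passed the test: its messenger RNA was lower in both groups of Sox2-GFP cells than in DCX-DsRed cells of the adult mouse brain. The 10 genes are Ptch1, Hhip, Boc, Cdon, Gas1, Smo, Sufu, Gli1, Gli2 and Gli3, a fixed list of the pathway's receptors, signal transducer, inhibitors and transcription factors. They were found by gene symbol among the non-control probes of an Agilent array that names 27670 genes, and they are covered by 20 probes, all of which passed the filter on dim probes. There were 3 groups with 3 arrays each: Sox2-GFP cells from the SVZ (subventricular zone, along the lateral ventricle), Sox2-GFP cells from the hippocampus, and DCX-DsRed cells from the hippocampus. The mice were 6 to 8 weeks old, each experiment used tissue of 10 pooled dissections, and for each array RNA of 1000 sorted cells was amplified. In these transgenic lines the Sox2 promoter drives green fluorescent protein and the Dcx promoter drives the red protein DsRed, so a sorted cell is one in which the promoter fragment is active or the fluorescent protein is still present. The labels leave unsaid whether replicates A, B and C of a group were separate animal pools; the p-values reflect the variation among these arrays only, and it may be technical.

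Hedgehog ligands such as Shh bind the membrane receptor Ptch1 with the help of the co-receptors Boc, Cdon and Gas1. Free Ptch1 holds Smo inactive, and ligand binding releases Smo, which then acts in the primary cilium to turn the Gli transcription factors into activators; Sufu binds Gli proteins and holds them back. Gli1 and Ptch1 are transcribed in response to the signal, as is Hhip, a surface protein that captures ligand and so dampens the signal. In the adult brain this pathway is known for maintaining neural stem cells in the SVZ and in the dentate gyrus of the hippocampus.

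Values are log2 of the processed signal minus the 75th percentile of the same array, so that 0 marks that percentile and 1 unit is a doubling of signal. The share of probes well above background was 80.4% to 88.4% per array. Hippocampal Sox2-GFP replicate C stood apart: across genes, which are not independent replicates, its mean correlation with the other arrays was 0.739, against 0.80 to 0.83 for each of the others. The messenger RNA of the reporter genes did not follow the labels. Sox2 read 0.92, 2.07 and 2.28 in SVZ Sox2-GFP replicates A, B and C, 0.94, 0.92 and -0.95 in hippocampal Sox2-GFP cells, and 1.30, 1.71 and 1.70 in DCX-DsRed cells. Dcx read 2.57, 3.05 and -2.36 in SVZ Sox2-GFP cells, -0.20, -0.77 and -2.88 in hippocampal Sox2-GFP cells, and -1.29, -0.78 and 1.28 in DCX-DsRed cells. Sox2 was thus lower on every hippocampal Sox2-GFP array than on every DCX-DsRed array. Dcx overlapped between all 3 groups and was highest in SVZ Sox2-GFP replicates A and B. Slide 1 carried SVZ Sox2-GFP A with DCX-DsRed A and B, slide 2 carried hippocampal Sox2-GFP A and B alone, and slide 3 carried the other 4 arrays. In a fit with slide as a block, hippocampal Sox2-GFP therefore rests on replicate C.

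Hhip stood far lower in Sox2-GFP cells of either region. On its representative probe (the probe with the highest mean signal, A_51_P416822) it read -6.13, -5.19 and -5.05 in SVZ Sox2-GFP replicates A, B and C, -4.25, -5.21 and -5.54 in hippocampal Sox2-GFP cells, and -1.32, -2.56 and -1.23 in DCX-DsRed cells. Each Sox2-GFP array lay below each DCX-DsRed array, while the Sox2-GFP groups overlapped. The probe was well above background on 2 of 3 arrays in either Sox2-GFP group and on all 3 DCX-DsRed arrays. Hhip was 9.79-fold lower in hippocampal Sox2-GFP than in DCX-DsRed cells (log2 difference -3.29, SE 0.53, limma with Benjamini-Hochberg adjustment over 24890 genes, adjusted p = 0.0182). It was 13.4-fold lower in SVZ Sox2-GFP than in DCX-DsRed cells (log2 difference -3.75, SE 0.53, limma adjusted p = 0.0177). These comparisons share the DCX-DsRed arrays. Of all genes tested, 3.19% were called in the hippocampal comparison and 1.52% in that of SVZ Sox2-GFP with DCX-DsRed cells, and Hhip was the 1 member of 10 called in each. Between SVZ and hippocampal Sox2-GFP cells it differed by -0.46 (95% confidence interval -1.68 to 0.76, limma adjusted p = 0.795).

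The other Hhip probe, A_52_P249826, had the same direction. It read -4.90, -6.50 and -6.83 in SVZ Sox2-GFP cells, -6.17, -7.05 and -5.92 in hippocampal Sox2-GFP cells, and -0.46, 0.21 and -0.52 in DCX-DsRed cells. The Sox2-GFP arrays again lay wholly below the DCX-DsRed arrays, and the probe was well above background on 1 of 3 arrays in either Sox2-GFP group. With every probe tested on its own, it was called lower than in DCX-DsRed cells in hippocampal (log2 difference -6.12, limma adjusted p = 0.00289) and in SVZ Sox2-GFP cells (log2 difference -5.82, limma adjusted p = 0.00646). The size of these differences is not well measured, because most Sox2-GFP arrays were not well above background for it. The probe met the filter of 3 arrays only with the DCX-DsRed group, so its order and its calls are not separate support. In that fit 3.17% and 1.38% of 36778 probes were called.

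Myelin genes moved with Hhip, and part of the oligodendrocyte precursor genes did. The summed linear level of 7 myelin genes (Mbp, Mog and 5 others) was 8.38 to 35.2 in SVZ Sox2-GFP cells and 1.74 to 18.6 in hippocampal Sox2-GFP cells, against 157 to 205 in DCX-DsRed cells, where 1 is the array's 75th percentile. That of 6 oligodendrocyte precursor genes was 8.54 to 9.70, 8.20 to 9.49 and 21.5 to 26.6 in the same order of groups. Among these, Olig1, Olig2 and Sox10, transcription factors of the lineage, were lower on every Sox2-GFP array than on every DCX-DsRed array, while Gpr17 and Cspg4 overlapped. Pdgfra, a growth factor receptor of precursors, read -2.65, -2.71 and -2.66 in SVZ Sox2-GFP cells and -0.63, -0.85 and 2.34 in hippocampal Sox2-GFP cells, against -1.28, -2.61 and -1.96 in DCX-DsRed cells, so it lay above DCX-DsRed in the hippocampal Sox2-GFP arrays. At least 6 of the 7 myelin genes and 5 of the 6 precursor genes were well above background on every array. Their part in the result was not tested. In sorted cells measured in bulk, fewer cells of a type and less RNA per cell cannot be told apart.

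The Hhip calls rested on few arrays. Within slide 3 the log2 difference was -4.30 for hippocampal Sox2-GFP (replicate C alone) and -3.89 for SVZ Sox2-GFP against DCX-DsRed C, and within slide 1 it was -4.18 for SVZ Sox2-GFP A. With slide as a block the differences were -4.40 (limma adjusted p = 0.0199) and -4.03 (adjusted p = 0.0190). The call of hippocampal Sox2-GFP against DCX-DsRed cells was lost without hippocampal Sox2-GFP B (limma adjusted p = 0.0598), DCX-DsRed A (0.0781) or DCX-DsRed C (0.0631). That of SVZ Sox2-GFP was lost without SVZ Sox2-GFP C (limma adjusted p = 0.0539), DCX-DsRed A (0.0862) or DCX-DsRed C (0.0645).

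**Figure D1:**
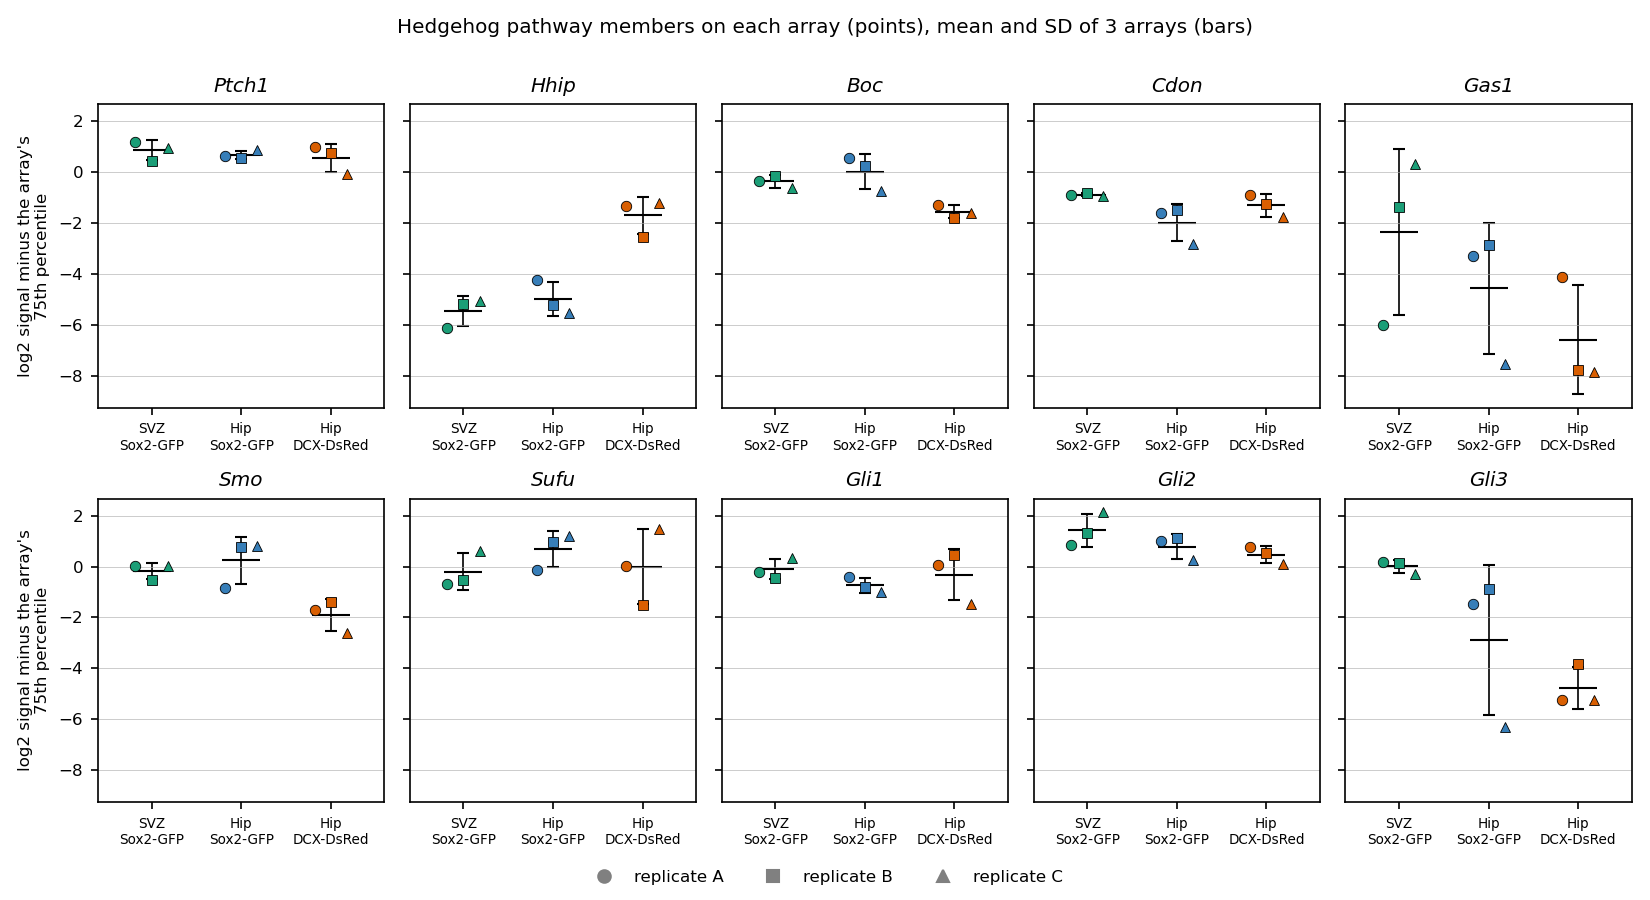
Log2 signal of the 10 members minus the array's 75th percentile (vertical axis) in SVZ Sox2-GFP, hippocampal (Hip) Sox2-GFP and hippocampal DCX-DsRed cells. Points are arrays, with shapes for replicates A, B and C, and bars are the mean and SD of 3 arrays; Hhip is lower on all 6 Sox2-GFP arrays than on the DCX-DsRed arrays, and hippocampal Sox2-GFP replicate C is far below replicates A and B for Gas1 and Gli3.

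Among the receptors, Ptch1 lay between -0.08 and 1.20 on its representative probe, where 0 marks the array's 75th percentile. Its representative probe, printed on 10 spots, read 1.20, 0.42 and 0.96 in SVZ Sox2-GFP replicates A, B and C, 0.62, 0.56 and 0.86 in hippocampal Sox2-GFP cells, and 0.99, 0.75 and -0.08 in DCX-DsRed cells. The 3 groups overlapped. The SD among the 10 spots was 0.03 to 0.12 per array, which covers technical spread within an array only. The log2 difference was 0.13 for hippocampal Sox2-GFP minus DCX-DsRed (95% confidence interval -0.75 to 1.00) and 0.30 for SVZ Sox2-GFP minus DCX-DsRed (-0.58 to 1.18), and between SVZ and hippocampal Sox2-GFP cells it was 0.18 (-0.70 to 1.05). The limma adjusted p was 0.906, 0.814 and 0.898. Its other probe, A_52_P598605, read -1.35, -0.63 and 0.79 in SVZ Sox2-GFP cells, -0.66, -0.91 and -1.30 in hippocampal Sox2-GFP cells, and -2.47, -1.51 and -1.27 in DCX-DsRed cells. The groups overlapped on it as well, and it differed from DCX-DsRed by 0.79 (limma adjusted p = 0.562) in hippocampal and 1.36 (adjusted p = 0.375) in SVZ Sox2-GFP cells.

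Boc, one of the co-receptors, differed by probe. Its representative probe A_52_P319495 read -0.34, -0.15 and -0.63 in SVZ Sox2-GFP cells, 0.56, 0.24 and -0.74 in hippocampal Sox2-GFP cells, and -1.30, -1.81 and -1.60 in DCX-DsRed cells. Every Sox2-GFP array lay above every DCX-DsRed array. The log2 difference from DCX-DsRed cells was 1.59 (SE 0.40, limma adjusted p = 0.0797) in hippocampal and 1.20 (SE 0.40, adjusted p = 0.221) in SVZ Sox2-GFP cells, neither past the threshold. Without hippocampal Sox2-GFP replicate C the hippocampal difference was 1.97 and was called (limma adjusted p = 0.0288). Probe A_51_P162636 lay the other way, at -4.78, -4.28 and -4.07 in SVZ Sox2-GFP cells and -4.58, -4.12 and -4.04 in hippocampal Sox2-GFP cells, against -2.31, -2.18 and -3.46 in DCX-DsRed cells. On it, too, the Sox2-GFP arrays did not overlap the DCX-DsRed arrays, and its differences of -1.60 (limma adjusted p = 0.109) and -1.73 (adjusted p = 0.120) also missed the threshold. Between SVZ and hippocampal Sox2-GFP cells the representative probe differed by -0.39 (limma adjusted p = 0.764). The third probe, A_52_P623296, had the sign of the representative one. It read -0.03, -2.30 and -1.30 in SVZ Sox2-GFP cells, -0.72, -0.53 and -1.60 in hippocampal Sox2-GFP cells, and -1.93, -1.53 and -3.02 in DCX-DsRed cells, and the groups overlapped. Its differences from DCX-DsRed cells were 1.21 (limma adjusted p = 0.416) in hippocampal and 0.95 (adjusted p = 0.616) in SVZ Sox2-GFP cells. Against DCX-DsRed cells the Boc probes thus did not have 1 common sign, and none of them passed the threshold when every probe was tested on its own.

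Cdon, a co-receptor related to Boc, had a narrow spread in the SVZ. It read -0.91, -0.81 and -0.94 in SVZ Sox2-GFP cells, -1.62, -1.51 and -2.81 in hippocampal Sox2-GFP cells, and -0.88, -1.27 and -1.78 in DCX-DsRed cells. The SVZ arrays lay above the hippocampal Sox2-GFP arrays. The difference between them was 1.096 (SE 0.43, limma adjusted p = 0.415), and it was 0.68 without hippocampal Sox2-GFP replicate C. With slide as a block, where replicate C stands for that group, it was 1.81 (limma adjusted p = 0.0443), past the threshold; 8.64% of genes were called in that fit, against 0.402% without the block. DCX-DsRed cells lay between, at a log2 difference of -0.67 for hippocampal Sox2-GFP (limma adjusted p = 0.477) and 0.42 for SVZ Sox2-GFP cells (adjusted p = 0.754).

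Gas1, the membrane-anchored co-receptor, varied widely within each group, and the groups overlapped. It read -5.998, -1.37 and 0.30 in SVZ Sox2-GFP cells, -3.29, -2.88 and -7.53 in hippocampal Sox2-GFP cells, and -4.12, -7.78 and -7.86 in DCX-DsRed cells. It was well above background on 3 SVZ, 2 hippocampal Sox2-GFP and 1 DCX-DsRed array. The difference of SVZ Sox2-GFP from DCX-DsRed cells was 4.23 with an SE of 1.90 (limma adjusted p = 0.380). It was -0.04 within slide 1 and 7.32 within slide 3, and ran from 2.90 without SVZ Sox2-GFP C to 6.05 without SVZ Sox2-GFP A. Hippocampal Sox2-GFP minus DCX-DsRed was 2.02 (SE 1.90, adjusted p = 0.643) and turned to -2.13 with slide as a block. SVZ minus hippocampal Sox2-GFP was 2.21 (adjusted p = 0.714), with 0.73 without hippocampal Sox2-GFP C and 4.03 without SVZ Sox2-GFP A.

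Smo, the transducer that Ptch1 restrains, lay higher in Sox2-GFP cells on its representative probe. A_52_P444864 read 0.03, -0.53 and 0.01 in SVZ Sox2-GFP cells, -0.83, 0.76 and 0.79 in hippocampal Sox2-GFP cells, and -1.71, -1.38 and -2.61 in DCX-DsRed cells. No Sox2-GFP array overlapped the DCX-DsRed arrays. The log2 difference from DCX-DsRed cells was 2.14 (SE 0.54, limma adjusted p = 0.0778) in hippocampal and 1.74 (SE 0.54, adjusted p = 0.187) in SVZ Sox2-GFP cells, so neither passed. SVZ minus hippocampal Sox2-GFP was -0.40 (limma adjusted p = 0.823). The difference from DCX-DsRed passed for hippocampal Sox2-GFP cells without replicate A of that group (2.68, limma adjusted p = 0.0480). The 2 other Smo probes had the same sign: A_51_P392665 differed by 4.18 (limma adjusted p = 0.0957) and 3.77 (0.171), with 1 of 3 DCX-DsRed arrays well above background, and A_51_P258766 by 1.29 (0.564) and 1.11 (0.715). On A_51_P258766 the groups overlapped.

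Sufu, which holds Gli proteins back, showed no common pattern. Its representative probe read -0.69, -0.54 and 0.62 in SVZ Sox2-GFP cells, -0.12, 0.96 and 1.19 in hippocampal Sox2-GFP cells, and 0.03, -1.50 and 1.46 in DCX-DsRed cells. The DCX-DsRed arrays alone spanned the range of both other groups. The difference from DCX-DsRed was 0.68 (SE 0.76, limma adjusted p = 0.704) in hippocampal and -0.20 (SE 0.76, adjusted p = 0.950) in SVZ Sox2-GFP cells. SVZ minus hippocampal Sox2-GFP was -0.88 (adjusted p = 0.717). Its 3 probes did not have the same sign in any of the 3 comparisons.

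Of the Gli factors, Gli1, the amplifying activator whose transcription follows the signal, overlapped between all groups. It was printed on 10 spots, with an SD among spots of 0.04 to 0.15, and read -0.20, -0.45 and 0.32 in SVZ Sox2-GFP cells, -0.41, -0.81 and -1.0004 in hippocampal Sox2-GFP cells, and 0.05, 0.47 and -1.47 in DCX-DsRed cells. The spread in DCX-DsRed cells came with replicate C, which was also the lowest DCX-DsRed array on the representative Ptch1 probe but the highest on Ptch1 probe A_52_P598605. The differences were -0.43 (95% confidence interval -1.63 to 0.77) for hippocampal Sox2-GFP minus DCX-DsRed, 0.20 (-0.998 to 1.40) for SVZ Sox2-GFP minus DCX-DsRed, and 0.63 (-0.57 to 1.83) for SVZ minus hippocampal Sox2-GFP, with limma adjusted p of 0.731, 0.924 and 0.703. Within slide 3 the same differences were 0.47, 1.40 and 0.93, and within slide 1 SVZ Sox2-GFP minus DCX-DsRed was -0.47. Hippocampal Sox2-GFP minus DCX-DsRed thus had the opposite sign within slide 3 to that over all arrays, and SVZ Sox2-GFP minus DCX-DsRed differed in sign between slides 1 and 3.

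Gli2, the main activator of the first response, read 0.84, 1.30 and 2.13 in SVZ Sox2-GFP cells, 0.99, 1.13 and 0.24 in hippocampal Sox2-GFP cells, and 0.75, 0.55 and 0.09 in DCX-DsRed cells. The SVZ arrays lay just above the DCX-DsRed arrays. The difference was 0.96 (SE 0.44, limma adjusted p = 0.386), and 0.33 (SE 0.44, adjusted p = 0.757) for hippocampal Sox2-GFP minus DCX-DsRed. Its other probe, A_52_P357829, spread far more: -1.57, 0.64 and 1.40 in SVZ Sox2-GFP cells and 0.83, -0.37 and -5.63 in hippocampal Sox2-GFP cells, against -6.04, -6.96 and -2.35 in DCX-DsRed cells. On that probe the SVZ difference from DCX-DsRed was 5.27 (SE 1.83, limma adjusted p = 0.243), with the DCX-DsRed side well above background on 1 array.

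Gli3, which in the absence of signal is processed into the pathway's main repressor, had the largest difference among the members' representative probes in SVZ Sox2-GFP against DCX-DsRed cells, but with a wide spread in hippocampal Sox2-GFP cells. Its representative probe A_51_P171288 read 0.18, 0.15 and -0.28 in SVZ Sox2-GFP cells, -1.47, -0.90 and -6.29 in hippocampal Sox2-GFP cells, and -5.26, -3.82 and -5.25 in DCX-DsRed cells. The SVZ arrays lay above all others, and hippocampal Sox2-GFP replicate C lay below the DCX-DsRed arrays while A and B lay above them. The probe was well above background on 3 SVZ Sox2-GFP, 2 hippocampal Sox2-GFP and 2 DCX-DsRed arrays. SVZ Sox2-GFP minus DCX-DsRed was 4.79 (SE 1.27, 95% confidence interval 1.89 to 7.70), a measured 27.8-fold difference that did not pass in the fit of all 9 arrays (limma adjusted p = 0.127). SVZ minus hippocampal Sox2-GFP was 2.91 (SE 1.27, adjusted p = 0.462), and hippocampal Sox2-GFP minus DCX-DsRed was 1.89 (SE 1.27, adjusted p = 0.501).

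For Gli3, the outcome of the test changed when hippocampal Sox2-GFP replicate C was left out, and also under other settings that kept it. All groups share 1 estimate of the spread in the main fit. Without replicate C, SVZ Sox2-GFP minus DCX-DsRed was again 4.79 with an SE of 0.46 and was called (limma adjusted p = 0.00426), as was hippocampal Sox2-GFP minus DCX-DsRed at 3.59 (adjusted p = 0.0179), 12.04-fold. The SVZ difference from DCX-DsRed was also called with those groups fitted alone (limma adjusted p = 0.0128), which leaves out all hippocampal Sox2-GFP arrays. With replicate C kept, it was called with slide as a block (4.95, limma adjusted p = 0.0134) and as a random block (5.05, adjusted p = 0.0385). It was also called with normexp background correction (3.48, limma adjusted p = 0.0398), which kept replicate C as well. Of all genes, 1.92%, 3.19%, 3.36% and 2.15% were called in these fits, in the same order. Within slide 3 it was 5.19 and within slide 1 it was 4.71. With slide as a block, hippocampal Sox2-GFP minus DCX-DsRed was -1.20 and SVZ minus hippocampal Sox2-GFP was 6.15 (limma adjusted p = 0.00812). The summed level of 10 astrocyte markers, among them Gfap and Aqp4, was 91.1, 107 and 183 in SVZ Sox2-GFP replicates A, B and C, 86.6, 99.1 and 14.8 in hippocampal Sox2-GFP cells and 38.5, 35.8 and 51.6 in DCX-DsRed cells. Hippocampal Sox2-GFP replicate C was thus lowest both for this sum and for Gli3. The markers did not all follow their sum between groups. Of the 10, 8 had a higher mean in SVZ and 6 in hippocampal Sox2-GFP than in DCX-DsRed cells. Gfap overlapped between all groups. Their part in the result was not tested.

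The other Gli3 probe, A_51_P410070, is printed on 10 spots and was dimmer, with an SD among spots of 0.04 to 0.57. It read -2.75, -4.32 and -1.74 in SVZ Sox2-GFP cells and -5.27, -4.01 and -8.31 in hippocampal Sox2-GFP cells, against -7.19, -7.66 and -7.56 in DCX-DsRed cells, where no array had it well above background. Set against the dimmest signal that counts as well above background, SVZ Sox2-GFP was 6.18-fold higher than DCX-DsRed. That is not a firm lower limit, because a probe not well above background can read brighter than that signal. The measured log2 difference of 4.53 did not pass (limma adjusted p = 0.0971, every probe on its own). Both Gli3 probes placed the SVZ arrays above the DCX-DsRed arrays. However, A_51_P410070 was well above background on 3 SVZ, 1 hippocampal Sox2-GFP and 0 DCX-DsRed arrays. It met the filter of 3 arrays only with the SVZ group, so its order is not separate support.

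**Figure D2:**
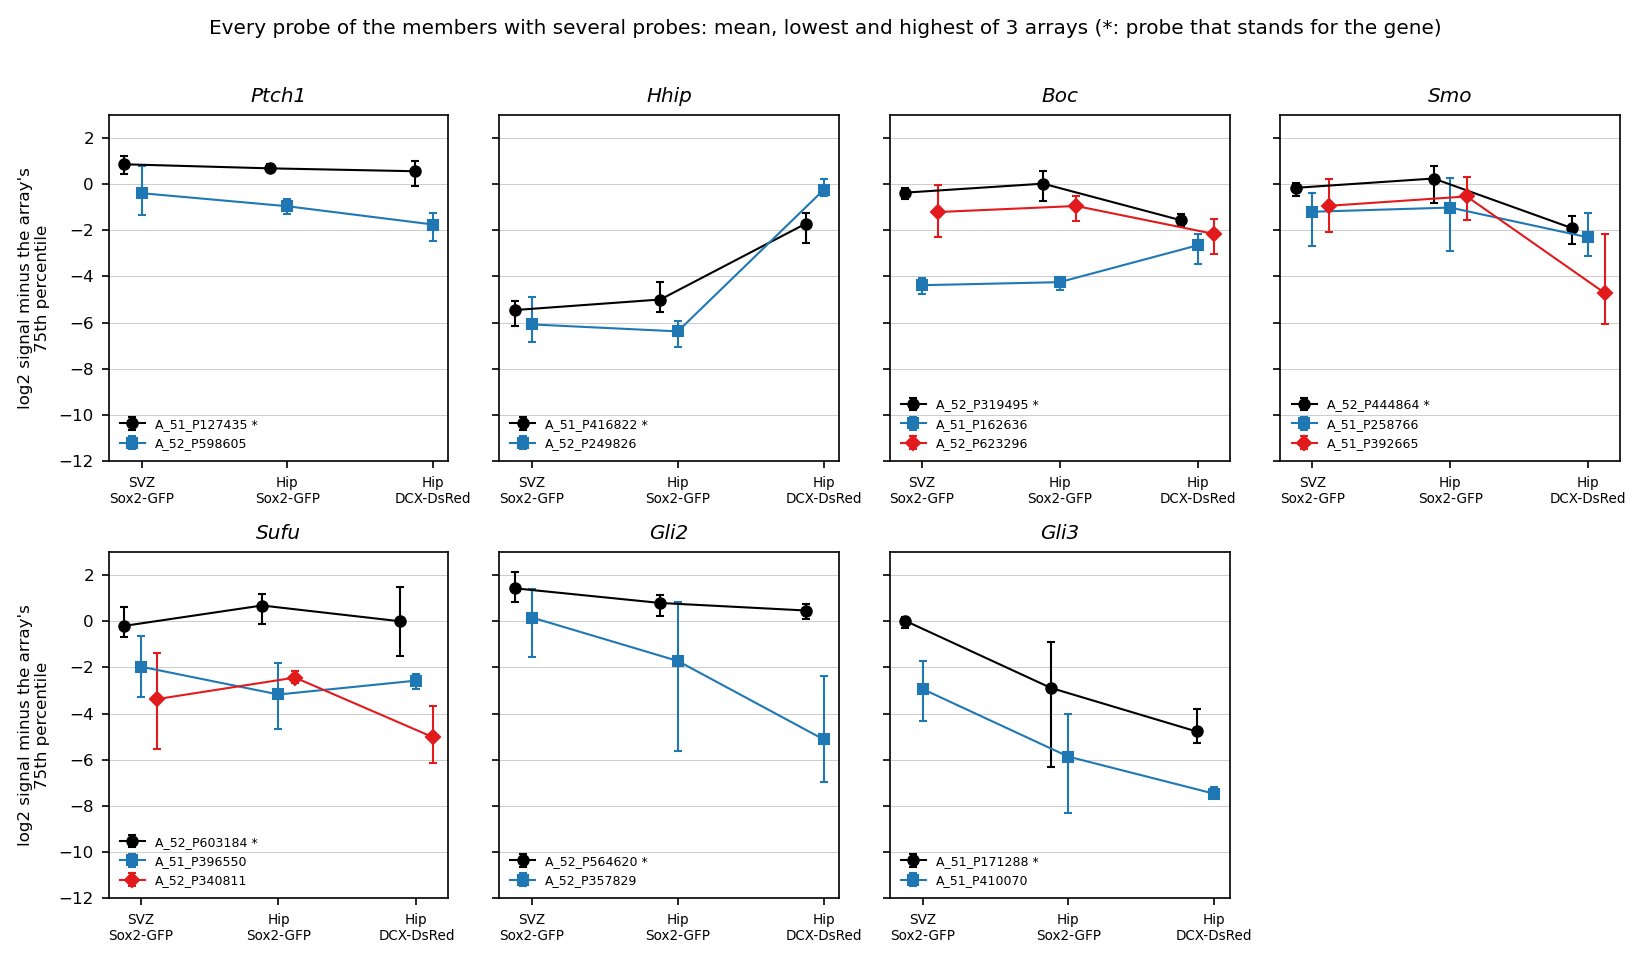
Mean, lowest and highest value of 3 arrays for each probe of the 7 members with several probes (log2 signal minus the array's 75th percentile), in SVZ Sox2-GFP, hippocampal (Hip) Sox2-GFP and DCX-DsRed cells. Both Hhip probes are highest in DCX-DsRed cells, both Gli3 probes are highest in SVZ Sox2-GFP cells, and Boc probe A_51_P162636 runs against the other Boc probes; levels of different probes are not comparable.

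Counted over the 10 members, the groups did not overlap for 2 higher (Boc, Smo) and 1 lower (Hhip) in hippocampal Sox2-GFP against DCX-DsRed cells, where 11.5% of all genes did so in the higher and 13.3% in the lower direction. For SVZ Sox2-GFP against DCX-DsRed cells it was 4 higher (Boc, Smo, Gli2, Gli3) and 1 lower (Hhip), against 10.7% higher and 10.4% lower of all genes. For SVZ against hippocampal Sox2-GFP cells it was 2 higher (Cdon, Gli3), against 8.86%. The median log2 difference of the members was 0.50, 0.69 and 0.40 in these comparisons, beside -0.08, -0.02 and 0.08 over all genes tested. In the comparison of SVZ with hippocampal Sox2-GFP cells 0 of 10 members passed limma's adjusted threshold, as did 0.402% of all genes tested. Without hippocampal Sox2-GFP replicate C, 3 members were called in hippocampal Sox2-GFP against DCX-DsRed cells (Hhip lower, Boc and Gli3 higher, with 3.15% of genes called) and 2 in SVZ Sox2-GFP against DCX-DsRed cells (Hhip lower, Gli3 higher, with 3.42% called).

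**Figure D3:**
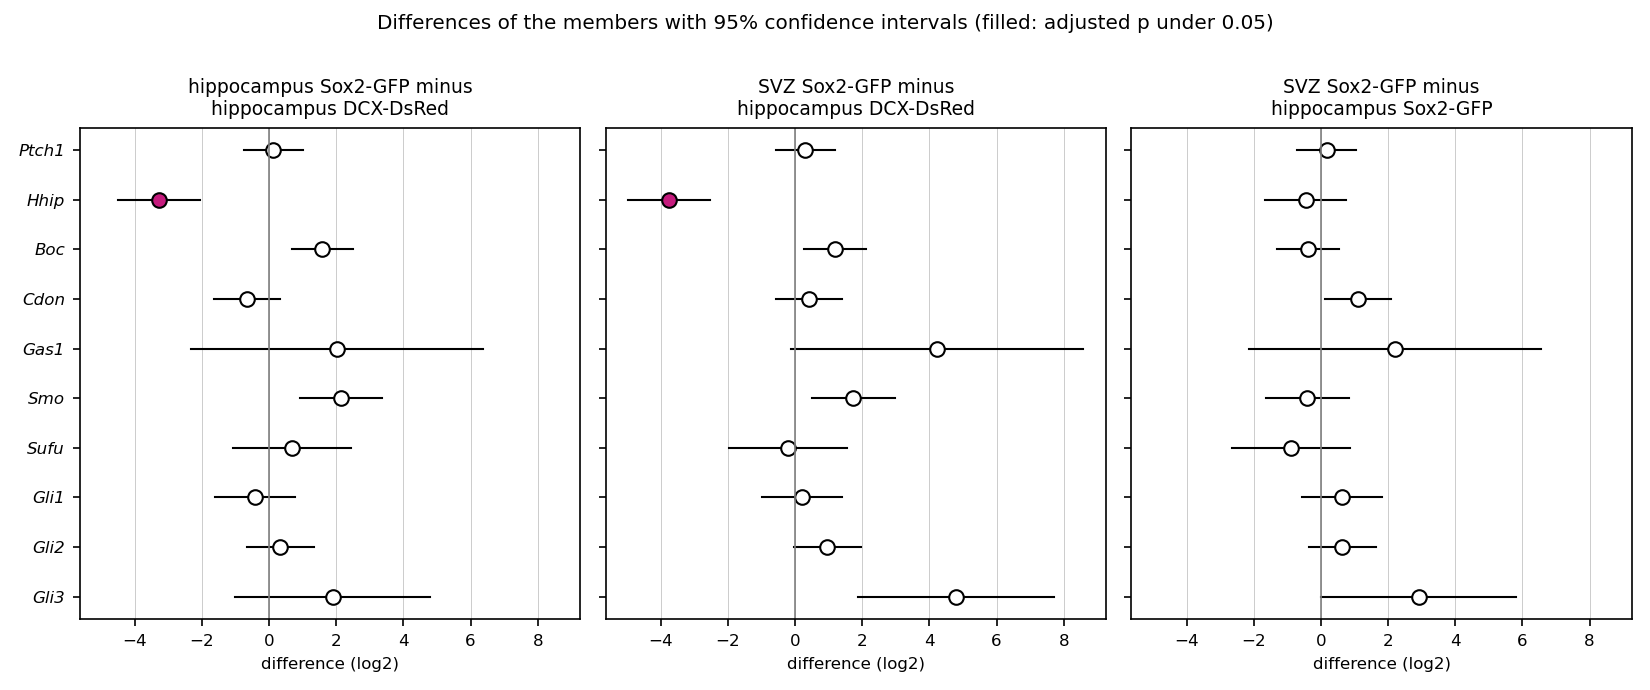
Log2 difference of each member (points) with its 95% confidence interval (lines) in the 3 comparisons; filled points passed an adjusted p of 0.05. Hhip is the filled point in both comparisons with DCX-DsRed cells, at -3.29 and -3.75, and Gas1 and Gli3 have the widest intervals.

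**Figure D4:**
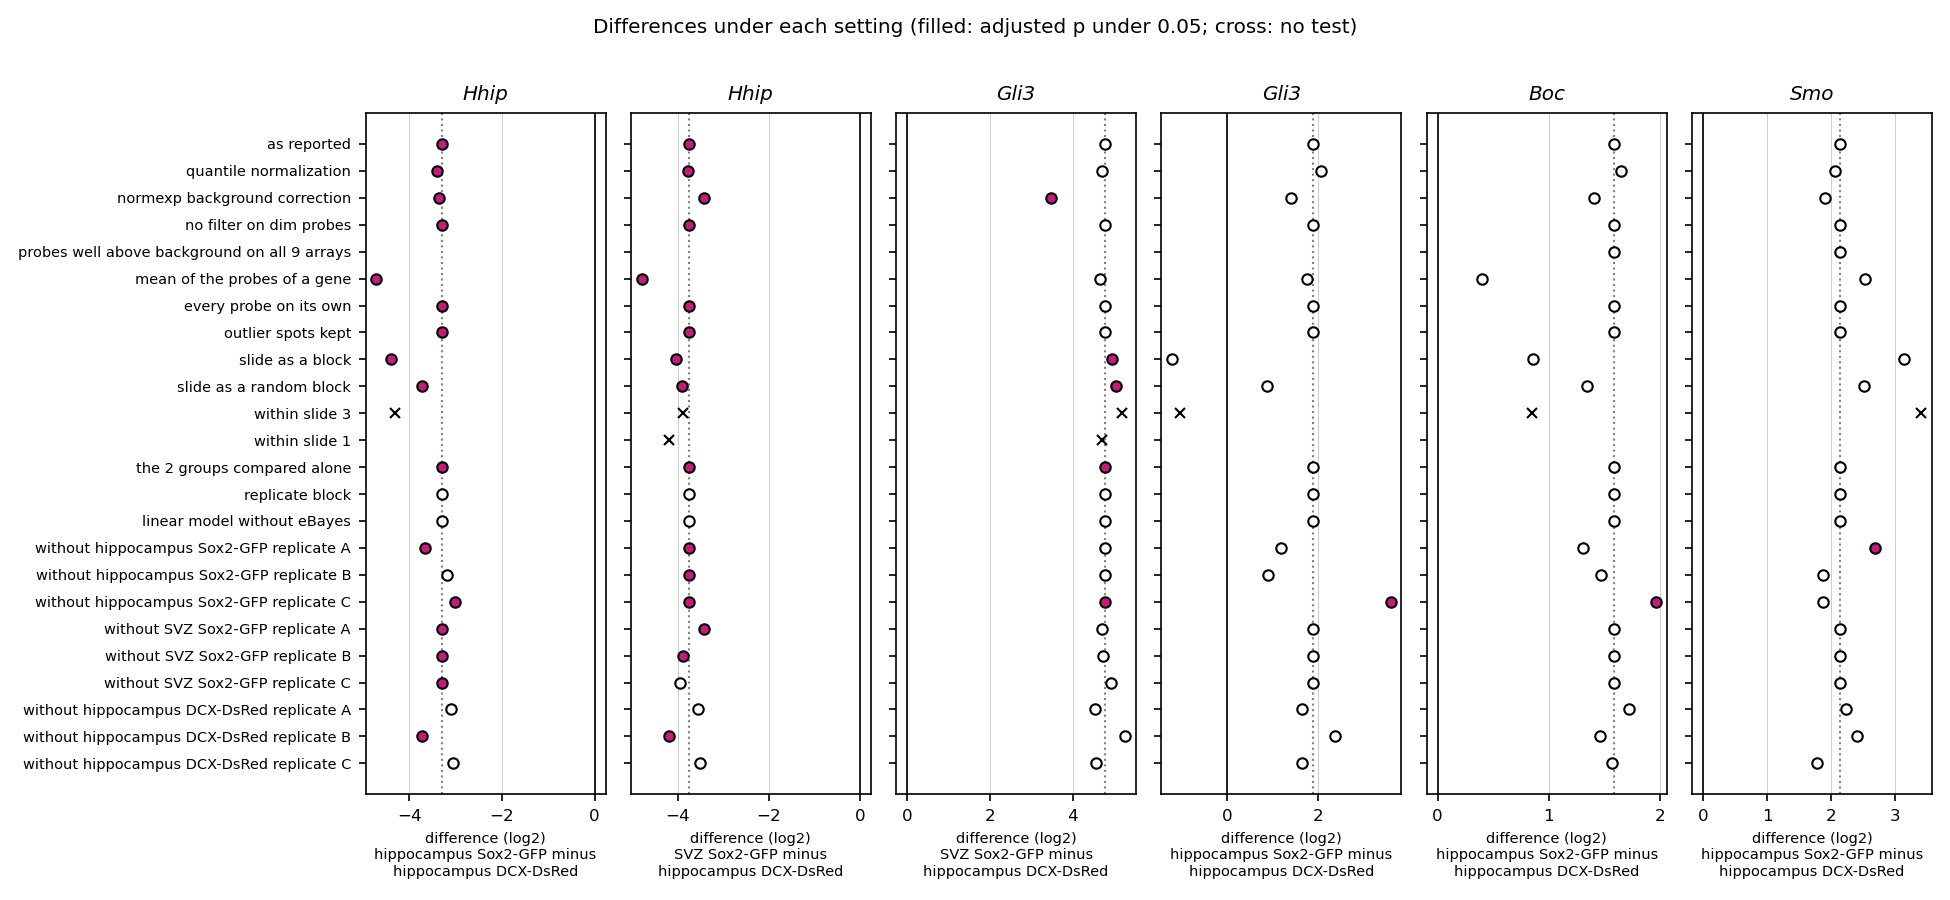
Log2 differences (horizontal axes) of Hhip, Gli3, Boc and Smo under each processing alternative (rows); filled points have an adjusted p under 0.05, crosses are values within a slide without a test, and dotted lines mark the reported value. Hhip stays below 0 in every row that has a value, Gli3 in SVZ Sox2-GFP minus DCX-DsRed stays between 3.48 and 5.27, and Gli3 in hippocampal Sox2-GFP minus DCX-DsRed crosses 0 within slide 3 and with slide as a block.

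The rest of the pathway was read from 5 lists. Of 8 genes for ligands and their release, Scube3, a secreted protein that helps to release ligand, was the 1 gene called higher in hippocampal Sox2-GFP against DCX-DsRed cells (2.84, SE 0.56, limma adjusted p = 0.0365), and 0 fell; 1.76% of all genes were called higher there. Scube3 read -1.05, -2.005 and -1.87 in SVZ Sox2-GFP cells, 0.57, 1.20 and 2.15 in hippocampal Sox2-GFP cells, and -1.47, -0.77 and -2.37 in DCX-DsRed cells. It was called in 10 of 21 tested alternatives, and SVZ minus hippocampal Sox2-GFP was -2.95 (limma adjusted p = 0.0907). Choroid plexus markers moved with it: 7 of them summed to 1.49 to 2.36 in SVZ Sox2-GFP, 46.8 to 151 in hippocampal Sox2-GFP and 1.37 to 1.91 in DCX-DsRed cells, and their part in the result was not tested. Shh, the ligand, was dim everywhere, at -3.68, -5.28 and -5.14 in SVZ Sox2-GFP cells, -4.78, -5.29 and -7.22 in hippocampal Sox2-GFP cells and -4.47, -4.26 and -5.01 in DCX-DsRed cells; it was well above background on all SVZ and DCX-DsRed arrays and on 0 hippocampal Sox2-GFP arrays. In SVZ Sox2-GFP against DCX-DsRed cells 0 of these 8 genes passed, and Disp1, which exports ligand, had the smallest p (0.82, limma adjusted p = 0.448).

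Of 12 genes for trafficking through the primary cilium, where Smo and Gli proteins act, 2 were called higher and 0 lower in hippocampal Sox2-GFP against DCX-DsRed cells, and 1 higher and 0 lower in SVZ Sox2-GFP against DCX-DsRed cells. Of all genes tested, 1.76% and 0.542% were called higher in these comparisons. Rpgrip1l, a protein of the ciliary transition zone, read 1.07, 0.65 and 2.03 in hippocampal Sox2-GFP cells against -2.65, -2.54 and -1.58 in DCX-DsRed cells (log2 difference 3.51, SE 0.47, limma adjusted p = 0.00868, called in 20 of 21 tested alternatives). In SVZ Sox2-GFP cells it read -0.34, -0.87 and -0.87, above each DCX-DsRed array. Tulp3, which carries membrane proteins into the cilium, read 0.80, 0.81 and 1.42 in SVZ Sox2-GFP cells, 0.75, 1.61 and 0.21 in hippocampal Sox2-GFP cells, and -0.94, -2.26 and -2.38 in DCX-DsRed cells. It was higher in hippocampal (2.72, limma adjusted p = 0.0333) and in SVZ Sox2-GFP cells (2.87, adjusted p = 0.0399) than in DCX-DsRed cells, in 10 and 12 of 21 tested alternatives. Ependymal markers, which are genes of ciliated cells, summed to 2.78 to 6.77 in SVZ Sox2-GFP, 7.70 to 21.0 in hippocampal Sox2-GFP and 1.72 to 2.20 in DCX-DsRed cells, and their part in the result was not tested. In SVZ against hippocampal Sox2-GFP cells 0 cilium genes passed, and Rpgrip1l differed by -1.94 (limma adjusted p = 0.177).

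In the 3 remaining lists 0 genes passed in any comparison. Of 11 target genes outside the members, Sfrp1, a secreted Wnt antagonist, came nearest in hippocampal Sox2-GFP against DCX-DsRed cells (3.07, limma adjusted p = 0.0687), Rab34, a small GTPase, in SVZ Sox2-GFP against DCX-DsRed cells (5.19, adjusted p = 0.305), and Ccnd1, the cyclin D1 gene, in SVZ against hippocampal Sox2-GFP cells (-1.67, adjusted p = 0.188). Rab34 read 0.18, -0.46 and -5.96 in hippocampal Sox2-GFP cells, with replicate C low as for Gli3. Of 15 genes for Gli kinases and turnover, Prkacb, a catalytic subunit of protein kinase A, differed by -1.50 (limma adjusted p = 0.155) in hippocampal Sox2-GFP against DCX-DsRed cells, Grk2, a kinase that acts on Smo, by 1.03 (0.544) in SVZ Sox2-GFP against DCX-DsRed cells, and Cul3, a ubiquitin ligase scaffold, by -1.42 (0.381) in SVZ against hippocampal Sox2-GFP cells. Of 4 other membrane proteins of the pathway, Evc2 differed by -0.80 (limma adjusted p = 0.608) in hippocampal Sox2-GFP against DCX-DsRed cells. Evc2 differed by 0.72 (adjusted p = 0.746) in SVZ against hippocampal Sox2-GFP cells. Evc differed by 0.12 (adjusted p = 0.960) in SVZ Sox2-GFP against DCX-DsRed cells.

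Over the 9 arrays, which mix group differences with array effects, the Pearson correlations among the 45 pairs of members ran from -0.90 (Hhip with Smo) to 0.94 (Gas1 with Gli2), with a median of 0.15. Gli2 and Gli3 correlated at 0.77, and Ptch1 and Gli1 at 0.66. Among 15239 genes well above background on all arrays, the closest to each of the 7 members so measured were Slc6a9 (r = 0.96) and Cfc1 (0.95) for Ptch1, Rprml (0.94) and Rabl2 (0.94) for Boc, Igfbp4 (0.98) and Dock4 (0.97) for Cdon, Ikbke (0.95) and Atrnl1 (0.94) for Smo, Txlna (0.94) and Ndufa5 (0.93) for Sufu, Itgb2 (0.96) and Slc34a3 (0.95) for Gli1, and Pax6 (0.97) and Adora2b (0.96) for Gli2. With 9 arrays and this many candidates, high values are a ranking only.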

How the data were processed

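The deposited files were 1 scanner output per array. Per the file headers, Agilent Feature Extraction 9.5.1.1 gave a background-subtracted processed intensity for each spot, which was not normalized between arrays; the deposited mean and local background intensity were used for normexp (offset 50). The deposited files also hold 0 or 1 flag columns, other than intensities, for spots well above background, saturated or outlying, per the file headers. Among tools, limma is named in the submitters' processing notes, with no version. Probe sequences, genome build and coordinates were not used here.

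The log2 of each spot was taken, spots of a probe were averaged without outlier spots, and the array's 75th percentile was subtracted. The filter asked for 3 or more of 9 arrays well above background, and a gene was represented by its brightest probe on average. Symbols were updated through a RefSeq table (assembly GRCm38.p6, names only). The fit ran in R 4.3.3 with limma 3.58.1 (lmFit, eBayes) over the 9 arrays (6 residual degrees of freedom), without a replicate term, with Benjamini-Hochberg adjustment over 24890 genes at 0.05. The steps were tested on simulated data. Deviations from the group mean correlated at -0.04 to 0.12 between same-letter replicates of different groups (1 of 9 pairs above 0.1). That gave no clear pairing by letter but cannot exclude a shared pool. The replicate block was fitted as an alternative.

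The members and lists were chosen with earlier results of these data known, and some genes of the lists are not reported here. All members are named. In each other list, up to 4 called genes with the largest difference are named, or the gene with the smallest p, and Shh, Sox2 and Dcx were added after their values were seen. The 2 genes closest to a member by Pearson r are named where its probe was well above background on all arrays. The number of arrays limits the precision. Alternatives covered normalization, background, filter, probe choice, slide, replicate block, groups fitted and each array left out.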

Additional observations from a re-analysis of the deposited data

How the results depend on the processing

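All Hhip differences from DCX-DsRed cells kept their sign. They ran from -4.71 to -3.02 in hippocampal Sox2-GFP and from -4.78 to -3.41 in SVZ Sox2-GFP cells, and were called in 15 of 20 tested alternatives in each comparison (adjusted p up to 0.0781 and 0.0862). Hhip was not tested among probes well above background on all 9 arrays, where 7 members were left. Whether the replicate letters mark a shared pool is not known. With the replicate block, Hhip lost both calls (limma adjusted p = 0.0540 and 0.0585). There 0, 0 and 0 members and 485, 186 and 13 genes were called (main counts 795, 379 and 100). The order is hippocampal Sox2-GFP minus DCX-DsRed, SVZ Sox2-GFP minus DCX-DsRed, SVZ minus hippocampal Sox2-GFP. Without eBayes the counts were 399, 156 and 23 genes and 0 members, with Hhip at 0.0535 and 0.0559. With slide as a block they were 2032, 795 and 2151 genes, and with slide as a random block 837 and 151 genes in the comparisons of SVZ cells. Members called in SVZ Sox2-GFP minus DCX-DsRed were 2 with slide as a block, slide as a random block, normexp or those groups alone, (534 genes with normexp, 479 for the groups alone), and 0 of 7 among probes above background on all arrays (332 of 20056 genes), as in hippocampal Sox2-GFP minus DCX-DsRed (691 genes); SVZ minus hippocampal Sox2-GFP had 2 with slide as a block. Its gene count was 157 with normexp, 50 on probes above background everywhere, 173 with probe means, 165 for every probe and 8 for those groups alone. Leaving out 1 array gave 250 to 783, 49 to 852 and 35 to 102 genes, and 0 to 3, 0 to 2 and 0 to 0 members.

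Uncalled differences changed sign as follows. With slide as a block, hippocampal Sox2-GFP minus DCX-DsRed was -2.13 for Gas1, -0.33 for Gli2 and -1.20 for Gli3, and SVZ minus hippocampal Sox2-GFP was -0.25 for Ptch1, 0.37 for Hhip and 0.36 for Boc. With probe means, SVZ Sox2-GFP minus DCX-DsRed was 0.69 for Sufu. With 1 array left out, hippocampal Sox2-GFP minus DCX-DsRed ran from -0.19 to 0.34 for Ptch1 and from -0.069 to 1.41 for Sufu; SVZ Sox2-GFP minus DCX-DsRed ran from -0.015 to 0.52 for Ptch1, -0.95 to 0.53 for Sufu, -0.37 to 0.60 for Gli1 and -0.32 to 0.46 for Evc. Within slide 3, hippocampal Sox2-GFP minus DCX-DsRed was -0.27 for Sufu, 0.47 for Gli1 and -1.04 for Gli3, and SVZ minus hippocampal Sox2-GFP was -0.17 for Ptch1, 0.42 for Hhip and 0.36 for Boc; within slide 1, SVZ Sox2-GFP minus DCX-DsRed was -0.04 for Gas1, 0.042 for Sufu and -0.47 for Gli1. The cause was not tested for any of these changes. Dim probes limit Gas1, Gli3 and Hhip, which were not well above background on every array.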
